A study of Homo sapiens with 4 samples.

Results

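The core splicing factor families comprise the serine- and arginine-rich proteins (SRSF genes), the heterogeneous nuclear ribonucleoproteins (HNRNP genes), the proteins of the small nuclear ribonucleoproteins (SNRP genes), the SF3A and SF3B subunits and the U2AF proteins. The genes were taken by symbol from the expression table of Kasumi-1 cells, a long-established line of acute myeloid leukemia that carries the RUNX1-RUNX1T1 fusion. The families themselves were chosen with earlier results of these data known. Of 18567 rows, 16986 were matched to a symbol, and 89 of these carried a family name. After 29 names ending in P plus digits and 4 names with a hyphen were left out, 56 genes remained, of which 11 were SRSF, 21 HNRNP, 12 SNRP, 9 SF3A or SF3B and 3 U2AF genes. All 56 had at least 1 TPM in at least 2 samples, and 0 were lost to that limit. The names are those of families, so other proteins of the same complexes, such as SNRNP70 or PHF5A, are counted below among other splicing factors. HNRNPLL and SRSF12 were not analysed here. The study sequenced RNA of 2 NC samples and 2 sh-ANP32B samples. The sh-ANP32B cells carried a lentiviral short hairpin RNA against ANP32B, a histone-binding acidic nuclear phosphoprotein, and were selected with puromycin. The labels give the NC samples as untreated, while a control hairpin is described in the study's methods, and the discrepancy was not settled. The study used 3 hairpins against ANP32B, and the labels name none of them for either sample. Nothing in the labels says that the 2 samples of a group were grown separately, so the p-values measure the spread between these samples, which may be technical.

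Introns are removed by the spliceosome, which is built on each intron from small nuclear ribonucleoproteins, or snRNPs. The U1 snRNP pairs with the start of the intron, U2AF binds its end, and the U2 snRNP with SF3A and SF3B settles on the branch site. A ring of Sm proteins surrounds the small nuclear RNA of the U1, U2, U4 and U5 snRNPs and is needed for their assembly and stability. SR proteins mostly bind exons and promote the use of nearby splice sites, whereas many hnRNPs coat nascent RNA and often repress splice sites. SF3B1, SRSF2 and U2AF1 are recurrent targets of mutation in myeloid neoplasms. Gene-level values, as used here, give the amount of each transcript and say nothing of its splicing.

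The targeted gene was examined before the families. ANP32B stood at 384 and 392 TPM (a unit that corrects for transcript length and for the total of the sample) in NC and at 51.8 and 41.2 TPM in sh-ANP32B (log2 fold change -3.04, SE 0.150, limma adjusted p 0.00516). Of 7 Kasumi-1 markers, RUNX1, RUNX1T1, CD33, ANPEP and KIT were listed, and CD34 and MPO were not analysed here. RUNX1T1 had 17.6 and 15.6 TPM in NC against 31.2 and 26.8 TPM in sh-ANP32B, and the summed level of the 5 listed markers was 299 and 279 TPM in NC against 358 and 377 TPM in sh-ANP32B. KIT stood at 1.55 to 3.41 TPM. As with CD34 and MPO, no T cell, erythroid, epithelial or fibroblast marker searched for was listed. A missing row does not show that a transcript was absent. Mitochondrial transcripts took 12.9% and 13.1% of all TPM in NC against 11.4% and 8.43% in sh-ANP32B. The part of the marker shifts in the results below was not tested. Without mitochondrial genes 3 members were again called lower and 0 higher, where 1.40% of all genes were lower and 1.87% higher. Depth is unknown, because TPM does not keep it.

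Most members had a lower mean after knockdown, and 3 of them passed the test adjusted over all genes. Of the 56 members, 43 (76.8%) had a negative log2 fold change, against 42.1% of the 16817 genes tested, and the median was -0.19 against 0.08 over all genes. Of all genes tested, 3.32% had an adjusted p under 0.05 in either direction. Of the members, 3 (5.36%) were lower at that threshold, where 1.18% of all genes tested were, and 0 were higher, where 2.14% of all genes were. After median-of-ratios scaling the shares over all genes were 1.71% lower and 1.37% higher, with the same member counts. These 3 were SNRPE, SNRPD1 and SNRPF. At an unadjusted p under 0.05 in the same limma fit, 21 members (37.5%) were lower and 3 (5.36%) were higher, against 8.72% and 15.0% of all genes. In 31 members (55.4%) both sh-ANP32B values lay below both NC values, and in 5 (8.93%) both lay above, where the shares over all genes were 21.4% and 33.2%. The study called genes at a p under 0.05 and a change beyond 0.5 on the log2 scale. It used DESeq2, and here the same thresholds were applied to the unadjusted p of limma on log2(TPM + 1). They were met by 9 members as lower (16.1%, against 6.55% of all genes) and by 0 as higher (against 12.1%). The members are abundant genes, with means between 11.3 and 674 TPM. Among the 9355 genes at or above the lowest of these means, 2.01% were lower and 2.88% higher with an adjusted p under 0.05, 43.3% had a negative log2 fold change and 24.9% lay below NC without overlap. Less RNA per cell and fewer cells of a type cannot be told apart in these bulk samples. The 56 members together took 1.20% and 1.18% of all TPM in NC against 1.06% and 1.08% in sh-ANP32B. After median-of-ratios scaling, which moves the median of all genes to 0.00, 47 members were negative.

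**Figure D1:**
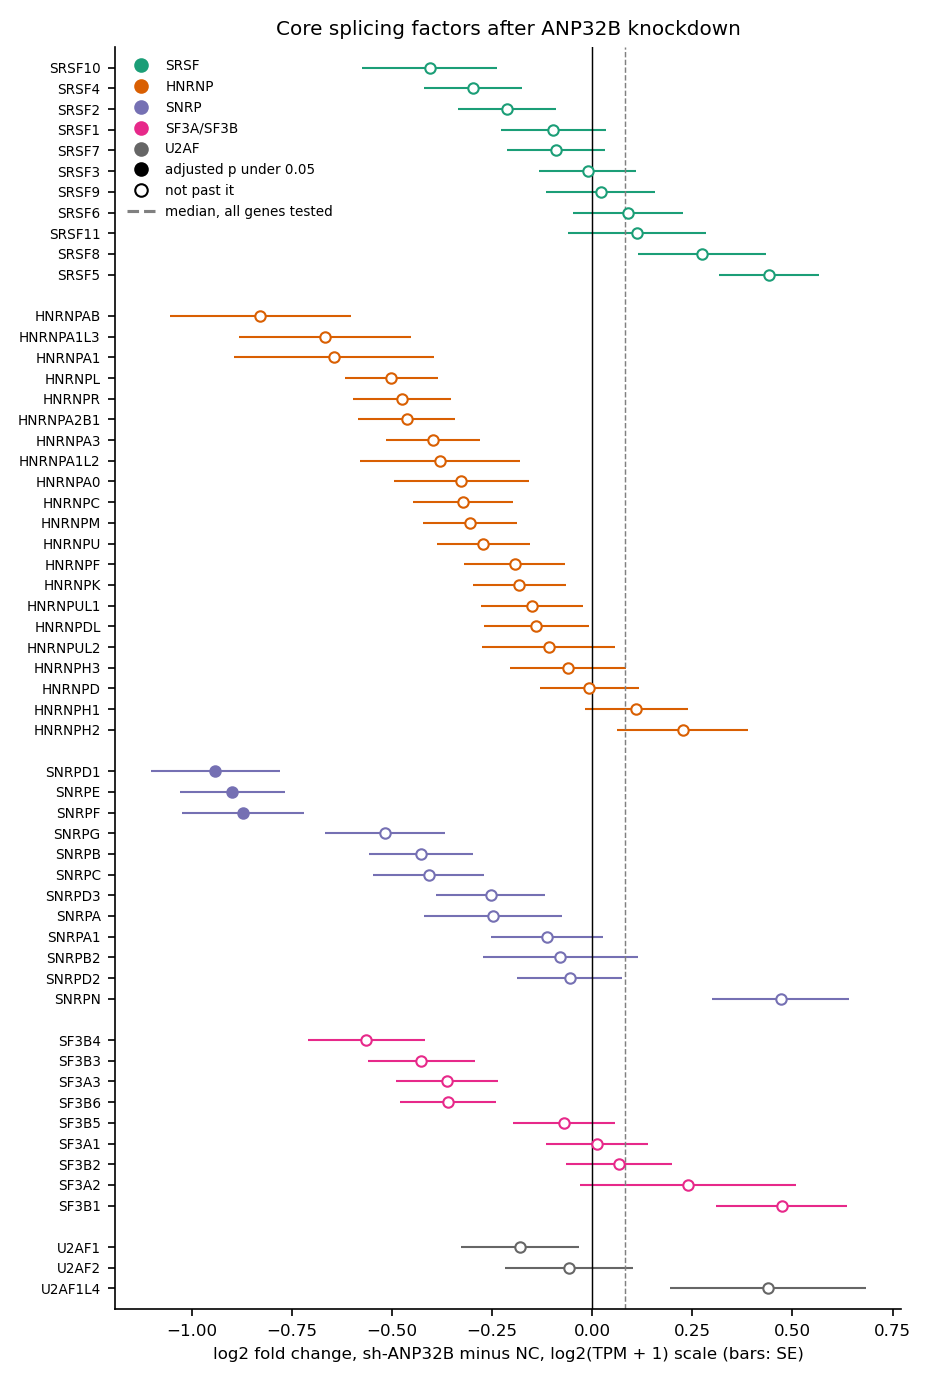
Log2 fold change of each of the 56 members (x axis, sh-ANP32B minus NC on the log2(TPM + 1) scale), grouped by family, with bars of 1 SE. Filled points have an adjusted p under 0.05, and the dashed line is the median of all genes tested (0.08). The HNRNP and SNRP points lie mostly left of 0, whereas SRSF and SF3A/SF3B points lie on both sides.

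The 3 called members are all genes of the Sm ring. SNRPE (chr1:203861599-203871152, plus strand, hg38) had 106 and 116 TPM in NC against 58.7 and 59.3 TPM in sh-ANP32B. The knockdown samples were nearly equal and lay far below both controls. SNRPE fell by 0.90 on the log2 scale (SE 0.132, limma adjusted p 0.0351), to 53.2% of the NC mean. SNRPD1 (chr18:21612314-21633524, plus strand) had 63.9 and 58.5 TPM in NC against 34.6 and 28.4 TPM in sh-ANP32B. Its highest knockdown value was below its lowest control value, and it fell by 0.94 (SE 0.161, limma adjusted p 0.0431), to 51.5% of NC. SNRPF (chr12:95858952-95903828, plus strand) had 66.8 and 67.0 TPM in NC against 39.4 and 33.1 TPM in sh-ANP32B. The groups did not overlap, and SNRPF fell by 0.87 (SE 0.151, limma adjusted p 0.0440), to 54.2% of NC. These 3 calls rest on both NC samples and on the abundance trend of the fit, without which 0 of all 16817 genes were called. Without NC replicate 1 the adjusted p was 0.104 to 0.191, without NC replicate 2 it was 0.109 to 0.215, and with limma without the trend it was 0.115 to 0.120.

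The other Sm genes covered a wide range. SNRPG, which sits beside SNRPE in the ring, had 106 and 116 TPM in NC against 70.1 and 84.7 TPM in sh-ANP32B. Both knockdown values were below both controls, and the log2 difference of -0.52 (SE 0.150) had an adjusted p of 0.105. SNRPB, the most abundant Sm gene in NC, had 368 and 375 TPM in NC against 257 and 297 TPM in sh-ANP32B, again without overlap (log2 fold change -0.43, adjusted p 0.115). SNRPD3 had 87.6 and 86.4 TPM in NC against 68.5 and 77.5 TPM in sh-ANP32B (log2 fold change -0.25, adjusted p 0.313). SNRPD2, the ring partner of SNRPD1, stood apart from these genes. It had 321 and 339 TPM in NC against 294 and 342 TPM in sh-ANP32B, so that its groups overlapped (log2 fold change -0.06, SE 0.131, adjusted p 0.840). SNRPN, an imprinted relative of SNRPB best known from neurons, was the only SNRP gene with a positive value. It had 99.99 and 91.8 TPM in NC against 115 and 154 TPM in sh-ANP32B, where both knockdown values were above both controls (log2 fold change 0.47, SE 0.171, adjusted p 0.164). In its canonical transcript 70.6% of 50-base stretches also occur in transcripts of other genes, SNURF among them, so its value is uncertain.

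**Figure D2:**
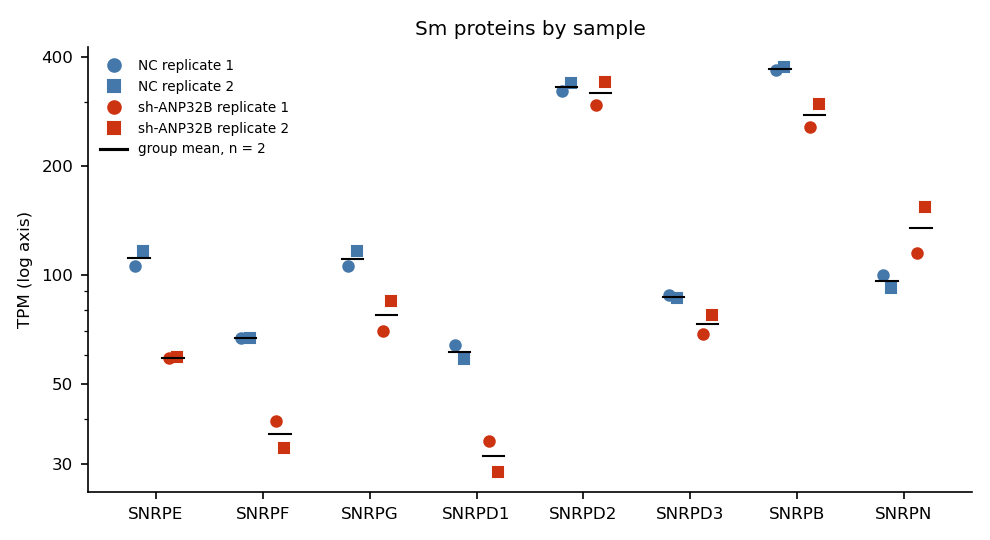
TPM of the 8 Sm genes in each sample (log axis), with NC in blue, sh-ANP32B in red, replicates by shape and a line at each group mean (n = 2). SNRPE, SNRPF and SNRPD1 show the widest gap between the groups, the SNRPD2 groups overlap, and SNRPN lies above NC in both knockdown samples.

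The Sm proteins are taken up into the ring in equal numbers, and the transcripts were far from equal in either group. SNRPE stood at 0.33 and 0.34 of the SNRPD2 level in the NC replicates and at 0.20 and 0.17 in sh-ANP32B. For SNRPD1 this ratio was 0.20 and 0.17 in NC and 0.12 and 0.083 in sh-ANP32B. For SNRPF it was 0.21 and 0.20 in NC and 0.13 and 0.097 in sh-ANP32B. In all 3 ratios both knockdown samples lay below both controls. SNRPD2 was the Sm gene with the smallest change, so these ratios largely restate the falls given above. SNRPN stood at 0.27 and 0.25 of the SNRPB level in NC and at 0.45 and 0.52 in sh-ANP32B. SNRPN lay above NC and SNRPB below it without overlap, so this ratio restates their values. Such ratios do not depend on the scaling between samples. They have no p here, since the smallest two-sided p of an exact permutation test is 0.333 with 2 samples in each group.

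Of the 4 SNRP proteins that belong to the U1 or U2 snRNP alone, 0 passed the test in limma, where 1.18% of all genes were lower and 2.14% higher. At an unadjusted p under 0.05, where 8.72% of all genes were lower, 1 of the 4 (25.0%) was. This was SNRPC, the U1 protein that steadies pairing with the start of the intron, with 180 and 156 TPM in NC against 120 and 133 TPM in sh-ANP32B. Its groups did not overlap (log2 fold change -0.41, SE 0.139, adjusted p 0.144). For SNRPA of U1 and for SNRPA1 and SNRPB2 of U2 the groups overlapped, with log2 fold changes of -0.25, -0.11 and -0.08. The median over these 4 genes was -0.18, and over the 8 Sm genes it was -0.47.

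The subunits of SF3A and SF3B, which hold the U2 snRNP on the branch site, were split in direction. In limma 0 of the 9 passed the test, and at an unadjusted p under 0.05 there were 4 lower and 1 higher, or 44.4% and 11.1% against 8.72% and 15.0% of all genes. SF3B1, the large subunit that clamps the branch site, had 485 and 516 TPM in NC against 803 and 602 TPM in sh-ANP32B. Both knockdown samples were above both controls, but they differed from each other by 0.42 on the log2 scale, and the log2 fold change of 0.47 (SE 0.164) had an adjusted p of 0.149. SF3B4, which contacts RNA near the branch site, had 73.7 and 75.4 TPM in NC against 46.2 and 54.4 TPM in sh-ANP32B. Its groups did not overlap (log2 fold change -0.56, SE 0.146, adjusted p 0.0833). SF3B3, a scaffold subunit, had 67.4 and 66.7 TPM in NC against 50.7 and 48.6 TPM in sh-ANP32B (log2 fold change -0.43, SE 0.133, adjusted p 0.122). SF3B6, which lies close to the branch point adenosine, had 198 and 197 TPM in NC against 151 and 157 TPM in sh-ANP32B (log2 fold change -0.36, SE 0.120, adjusted p 0.138). SF3A3 had 107 and 109 TPM in NC against 86.2 and 80.9 TPM in sh-ANP32B (log2 fold change -0.36, SE 0.127, adjusted p 0.154). In SF3B3, SF3B6 and SF3A3 the controls were within 2 TPM of each other and the knockdown samples below them. SF3B2, SF3B5 and SF3A1 had log2 fold changes between -0.07 and 0.07 and overlapping groups. SF3A2 had 93.7 and 85.2 TPM in NC against 78.0 and 143 TPM in sh-ANP32B. Its knockdown values lie on either side of the controls, and the log2 fold change of 0.24 has an SE of 0.270 (adjusted p 0.645).

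Within SF3B the balance between subunits differed between the groups. SF3B1 stood at 7.20 and 7.74 times the level of SF3B3 in NC and at 15.8 and 12.4 times in sh-ANP32B. Against SF3B4 the ratio was 6.59 and 6.85 in NC and 17.4 and 11.1 in sh-ANP32B. Both ratios lay higher in both knockdown samples than in either control. This had to follow from the values above, where SF3B1 lay above NC and SF3B3 and SF3B4 below it without overlap. In the canonical transcript of SF3B1 1.12% of 50-base stretches recur in transcripts of other genes, against 14.3% in that of SF3B4.

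**Figure D3:**
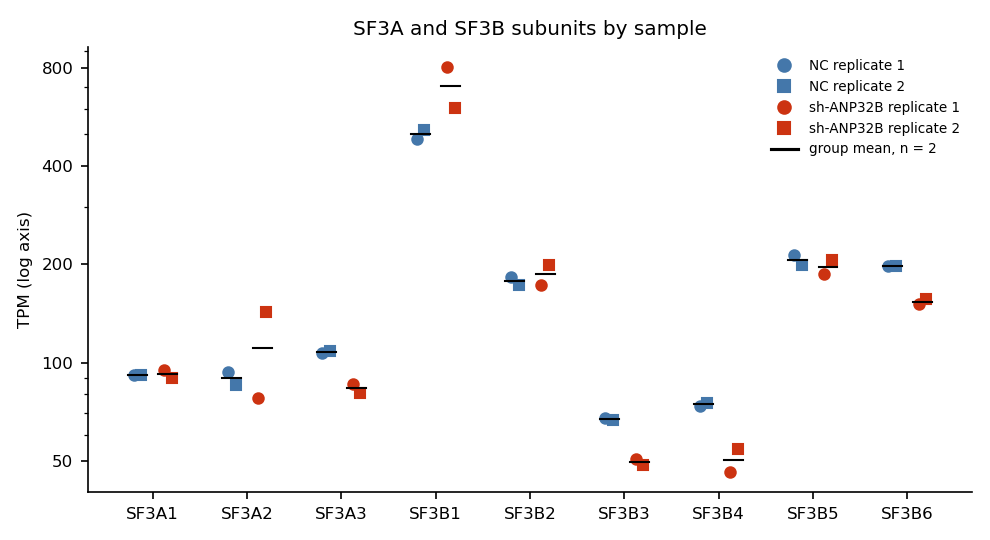
TPM of the 9 SF3A and SF3B genes in each sample (log axis), coloured by group, with replicates by shape and a line at each group mean (n = 2). SF3B1 is the most abundant subunit and lies above NC in both knockdown samples, SF3B3, SF3B4, SF3B6 and SF3A3 lie below NC in both, and SF3A2 has 1 knockdown value on each side.

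None of the 3 U2AF genes passed the test in limma, adjusted or unadjusted. Of all genes, 3.32% passed it adjusted, and unadjusted 8.72% were lower and 15.0% higher. U2AF2, which binds the polypyrimidine tract, had 158 and 141 TPM in NC against 127 and 162 TPM in sh-ANP32B, with the knockdown values outside the range of the controls on both sides (log2 fold change -0.06, SE 0.159, adjusted p 0.868). U2AF1, which reads the final AG of the intron, had 92.4 and 77.1 TPM in NC against 73.0 and 75.9 TPM in sh-ANP32B. Both knockdown values lay below the lower control, by less than the controls differed (log2 fold change -0.18, SE 0.146, adjusted p 0.504). Of its 50-base stretches 98.7% recur in other genes, and a row for the copy ENSG00000275895 on chromosome 21, which the annotation marks as an artifact, had 83.3 and 82.4 TPM in NC against 50.5 and 59.5 TPM in sh-ANP32B. Reads of the 2 rows cannot be separated, so the U2AF1 value is uncertain. U2AF1L4, a related gene, had 23.3 and 16.1 TPM in NC against 22.6 and 31.4 TPM in sh-ANP32B (log2 fold change 0.44, SE 0.244, adjusted p 0.330), and its groups overlapped.

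Among the hnRNP genes 19 of 21 had a negative log2 fold change, with a median of -0.31. In limma 0 passed the test, while 9 were lower and 0 higher at an unadjusted p under 0.05, and 15 had both knockdown values below both controls. These are 42.9% lower at an unadjusted p and 71.4% without overlap, where 8.72% and 21.4% of all genes were. The A/B type as grouped here, some of whose members bind AG-rich RNA and silence exons, held the lowest values. All 7 of its genes lay below NC without overlap, with a median of -0.46. HNRNPAB had 126 and 118 TPM in NC against 53.7 and 86.5 TPM in sh-ANP32B. The knockdown samples were both low but 0.68 apart on the log2 scale, and the log2 fold change of -0.83 (SE 0.226) had an adjusted p of 0.0936. HNRNPA1, the best studied splicing silencer of the family, had 796 and 574 TPM in NC against 344 and 543 TPM in sh-ANP32B. Its knockdown replicate 2 was close to NC replicate 2 (log2 fold change -0.64, SE 0.249, adjusted p 0.185). HNRNPA2B1 had 711 and 681 TPM in NC against 486 and 524 TPM in sh-ANP32B, where the groups were well apart (log2 fold change -0.46, SE 0.120, adjusted p 0.0833). HNRNPA3, HNRNPA0, HNRNPA1L2 and HNRNPA1L3 had log2 fold changes between -0.67 and -0.33. HNRNPA1 shares 32.7% of its 50-base stretches with other genes, HNRNPA1L3 51.6% and HNRNPA1L2 all of them, so these 3 values are uncertain.

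The K, L, M and R genes, 4 proteins with varied binding preferences, were grouped here for description only. All 4 lay below NC without overlap, where 21.4% of all genes did, with a median of -0.39. HNRNPL, which binds CA repeats, had 420 and 422 TPM in NC against 298 and 297 TPM in sh-ANP32B. The replicates were nearly equal in both groups, and the log2 fold change of -0.50 (SE 0.115) had an adjusted p of 0.0669, the lowest among the members outside the Sm genes. Of the 50-base stretches of HNRNPL 37.4% recur in other genes, and ENSG00000268083 overlaps it on its own strand, so its value is uncertain. HNRNPR had 147 and 151 TPM in NC against 109 and 106 TPM in sh-ANP32B (log2 fold change -0.48, SE 0.122, adjusted p 0.0823). HNRNPM had a log2 fold change of -0.31 (adjusted p 0.186). HNRNPK, a binder of cytosine-rich RNA that is haploinsufficient in some myeloid leukemias, had 485 and 502 TPM in NC against 439 and 431 TPM in sh-ANP32B. Its groups did not overlap, with a log2 fold change of -0.18 (SE 0.116, adjusted p 0.391), and HNRNPK-AS1 overlaps it on the opposite strand. HNRNPC, which binds uridine tracts, had 488 and 465 TPM in NC against 360 and 402 TPM in sh-ANP32B (log2 fold change -0.32, SE 0.125, adjusted p 0.185). HNRNPU, a nuclear scaffold protein, had 358 and 367 TPM in NC against 299 and 301 TPM in sh-ANP32B (log2 fold change -0.27, SE 0.116, adjusted p 0.218). Both genes lay below NC in both knockdown samples. The other U type genes HNRNPUL1 and HNRNPUL2 had values of -0.15 and -0.11.

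The F/H and D type hnRNPs had log2 fold changes between -0.19 and 0.23. HNRNPH1, which binds runs of G, had 622 and 675 TPM in NC against 743 and 658 TPM in sh-ANP32B, with overlapping groups (log2 fold change 0.11, SE 0.129, adjusted p 0.659). Its relative HNRNPH2 had 31.2 and 36.1 TPM in NC against 36.5 and 42.6 TPM in sh-ANP32B, the largest positive value among the hnRNPs (log2 fold change 0.23, SE 0.164, adjusted p 0.453). HNRNPH2 overlaps the readthrough gene RPL36A-HNRNPH2 on its own strand, whose control values of 39.1 and 59.1 TPM stood against 4.40 TPM and a listed 0 after knockdown, so the division of reads between these rows is uncertain. HNRNPF and HNRNPH3 had values of -0.19 and -0.06, and the median of the 4 F/H genes was 0.03. HNRNPD and HNRNPDL, which bind AU-rich RNA, had values of -0.01 and -0.14, with overlapping groups.

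The SR protein genes had a median log2 fold change of -0.01, with 6 of 11 negative. In limma 0 passed the test, and at an unadjusted p under 0.05 there were 2 lower and 1 higher, or 18.2% and 9.09% against 8.72% and 15.0% of all genes. SRSF1, the founding member of the family, had 238 and 260 TPM in NC against 219 and 247 TPM in sh-ANP32B, with overlapping groups (log2 fold change -0.10, SE 0.131, adjusted p 0.707). SRSF3, the shortest SR protein, had 167 and 161 TPM in NC against 159 and 165 TPM in sh-ANP32B (log2 fold change -0.01, SE 0.121, adjusted p 0.972). SRSF2 had 372 and 338 TPM in NC against 312 and 299 TPM in sh-ANP32B, where both knockdown values lay below both controls (log2 fold change -0.21, SE 0.123, adjusted p 0.347). SRSF2 overlaps MFSD11 on the opposite strand, and it is not stated whether strand was used in the quantification.

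SRSF5 and SRSF10 marked the ends of the SR family. SRSF5 had 354 and 337 TPM in NC against 495 and 446 TPM in sh-ANP32B. Both knockdown values were above both controls (log2 fold change 0.44, SE 0.124, adjusted p 0.0995), and none of its 50-base stretches recurs in another gene. SRSF10, which turns into a repressor when dephosphorylated, had 242 and 246 TPM in NC against 214 and 158 TPM in sh-ANP32B. Its groups did not overlap, though the knockdown samples were 0.44 apart on the log2 scale (log2 fold change -0.41, SE 0.168, adjusted p 0.207). SRSF11, the SR gene with the highest mean level, had 398 and 445 TPM in NC against 529 and 391 TPM in sh-ANP32B, with knockdown values on both sides of the controls (log2 fold change 0.11, SE 0.172, adjusted p 0.747). SRSF4 and SRSF7 lay below NC in both knockdown samples, with log2 fold changes of -0.30 and -0.09, and SRSF8 lay above in both, at 0.27. SRSF6 and SRSF9 had values of 0.09 and 0.02 and overlapping groups. SRSF5 stood at 1.49 and 1.30 times the level of SRSF1 in NC and at 2.26 and 1.81 times in sh-ANP32B.

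Summed over each family, hnRNP and SNRP transcripts took a smaller share of both knockdown samples than of either control, and SR transcripts lay on both sides of the controls. Relative to the NC mean, the HNRNP sum stood at 80.2% and 84.7% in sh-ANP32B replicates 1 and 2, and the SNRP sum at 77.5% and 86.9%. The SRSF sum was 105% and 95.6%, against 99.2% and 101% in the controls. The SF3A/SF3B sum was 110% and 104%, and the U2AF sum 87.6% and 106%. The HNRNP to SRSF ratio of these sums was 2.48 and 2.37 in NC and 1.85 and 2.15 in sh-ANP32B. Without HNRNPA1 this ratio was 2.16 and 2.14 in NC and 1.72 and 1.92 in sh-ANP32B, where the groups again did not overlap. The SNRP to SRSF ratio was 0.68 and 0.67 in NC and 0.50 and 0.62 in sh-ANP32B. The SF3A/SF3B to SRSF ratio was 0.62 and 0.61 in NC and 0.64 and 0.67 in sh-ANP32B. This direction rests on SF3B1, since without it the ratio was 0.42 and 0.40 in NC and 0.33 and 0.41 in sh-ANP32B, where the groups overlap. In these ratios of HNRNP and SNRP to SRSF both knockdown samples lay below both controls, and knockdown replicate 1 lay further from the controls than replicate 2. No test was run on the contrast between families.

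**Figure D4:**
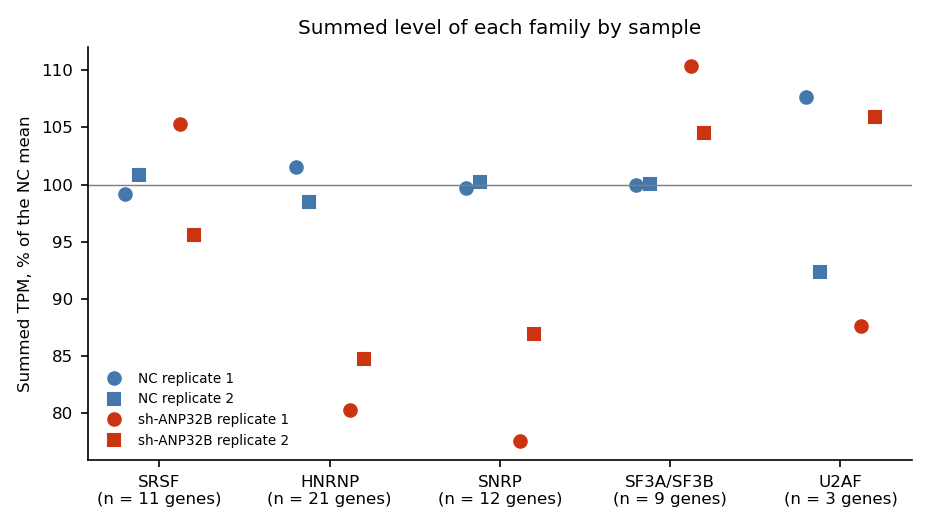
Summed TPM of each family in each sample as a percentage of the NC mean (y axis, not starting at 0), with NC in blue, sh-ANP32B in red and replicates by shape. The HNRNP and SNRP sums lie between 77.5% and 86.9% in the knockdown samples, whereas the SRSF and U2AF sums of the knockdown samples lie on both sides of 100%.

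The knockdown replicates differed from each other along with base composition, and the members followed. Between sh-ANP32B replicates 2 and 1, the log2 difference of the 56 members had a Spearman rho of 0.55 with the GC content of the longest transcript, and it was 0.58 over 15427 genes. Between the NC replicates rho was -0.49 over the members and -0.21 over all genes. The difference between the groups had a rho of 0.04 with GC content over the members and 0.16 over all genes. These correlations are across genes of the same libraries and are given without a p. The median GC content was 40.4% in the SRSF, 43.0% in the HNRNP and the SNRP, 48.4% in the SF3A/SF3B and 55.6% in the U2AF genes, against 48.1% over all genes. SF3A2, at 66.5% the richest in GC, showed the widest gap between the knockdown replicates, 0.87 on the log2 scale. SRSF10 and SRSF11, at 35.9% and 36.6%, showed -0.44 each. SNRPE differed by 0.014 and HNRNPL by -0.0037 between the same replicates. When log2 values were corrected for GC content in each sample, 14 members were lower and 2, SF3B1 and SRSF5, were higher with an adjusted p under 0.05. In that fit 7.29% of all genes were lower and 9.33% higher, so more calls were made throughout.

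**Figure D5:**
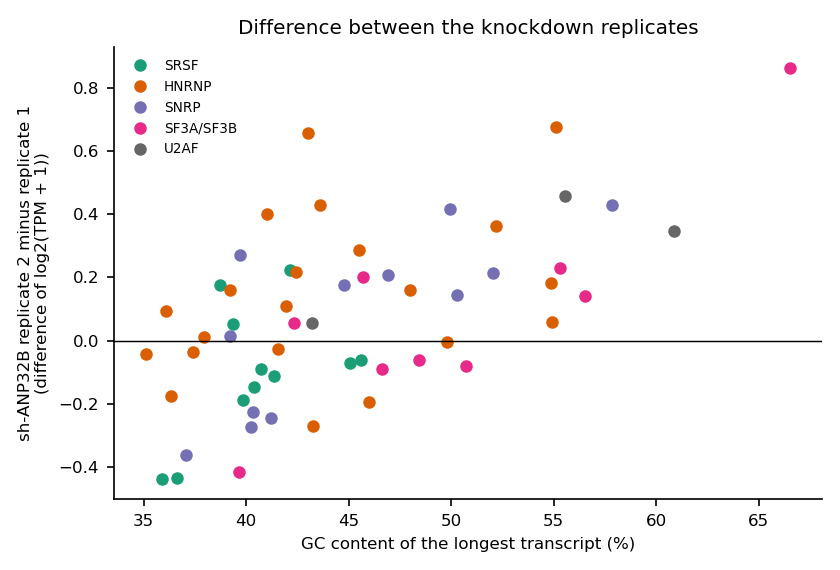
Difference between sh-ANP32B replicates 2 and 1 (y axis, log2(TPM + 1)) for each member against the GC content of its longest transcript (x axis, percent), coloured by family. Members low in GC content tend to lie below 0 and members high in GC content above it (Spearman rho 0.55, 56 genes), with SF3A2 at the upper right.

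Other splicing factors were examined in 7 lists of 142 genes, of which 137 were tested. An adjusted p under 0.05 was reached by 1 gene as lower and 0 as higher in limma, and at an unadjusted p under 0.05 there were 25 lower and 6 higher. The called share of 0.730% was below the 1.18% of all genes called lower, and the unadjusted shares of 18.2% lower and 4.38% higher compare with 8.72% and 15.0% of all genes. The called gene was WDR77, the partner of the methyltransferase PRMT5 in the complex that methylates Sm proteins before ring assembly. WDR77 had 46.1 and 42.2 TPM in NC against 25.0 and 25.1 TPM in sh-ANP32B, and fell by 0.79 (SE 0.148, limma adjusted p 0.0455). The WDR77 call rests on both NC samples and on the abundance trend of the fit. Without that trend 0 of all 16817 genes passed in limma, and so 0 of these lists. At an unadjusted p under 0.05 the fit without the trend had 18 of the 137 genes, where it had 3701 of all 16817 genes, a larger share. Of the 19 snRNP assembly genes 17 had a negative value, with a median of -0.32, and PRMT5 itself had -0.49 (adjusted p 0.115). The lowest value of that list was SMN2 at -1.01 and the highest GEMIN7 at 0.58, with adjusted p of 0.115 and 0.0979. SMN2 and SMN1 are near-identical, so their values are uncertain. The 10 LSM genes, whose products form the ring on U6 and U7 RNA and on decaying messages, had a median of -0.24. Their lowest was LSM2 at -0.49 and their highest LSM10 at 0.56, with adjusted p of 0.338 and 0.181.

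The remaining lists had medians nearer to 0. Among 25 other snRNP proteins (median -0.04) the ends were SNRNP40 of U5 at -0.57 and PRPF3 of U4/U6 at 0.59, with adjusted p of 0.0736 and 0.0699. Among 16 U2-associated factors (median -0.11) PHF5A, an SF3B subunit that its symbol keeps out of the SF3B family, had 44.2 and 46.2 TPM in NC against 24.2 and 28.3 TPM in sh-ANP32B (log2 fold change -0.76, SE 0.156, adjusted p 0.0543), and the highest was ZRSR2 at 0.34. The 25 PRP19 complex and catalytic factors (median -0.08) ranged from PPIL1 at -0.75 to CWC15 at 0.22, and the 26 listed other regulators of alternative splicing (median -0.14) from SYNCRIP at -0.56 to QKI at 0.37. The 16 kinases and relatives of SR proteins had 8 positive and 8 negative values. SRPK1, which phosphorylates SR proteins in the cytoplasm, stood lowest at -0.63 (adjusted p 0.0833). CLK1, a nuclear kinase of SR proteins, stood highest, with 179 and 183 TPM in NC against 373 and 248 TPM in sh-ANP32B (log2 fold change 0.75, SE 0.199, adjusted p 0.0883). The knockdown values of CLK1 were far apart, as were those of SF3B1.

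Promoter sequences were taken from RefSeq (GRCh38.p14), as 300 bases from 250 before to 50 after a start site, and 51 of the 56 members had a window. HNRNPA1, HNRNPA1L3, SF3B3, SNRPD1 and SRSF2 had none. In 47 the window sat on the start of the canonical transcript, and in HNRNPA1L2, HNRNPF, SNRPE and SNRPG it did not. Sequences were searched on both strands for CCGGAAG (ETS type), the CCAAT box, a GC box spelled GGGCGG, an E-box spelled CACGTG, the NRF1 type palindrome, the TATA box TATAAA and an E2F type spelled TTTGGCGC, TTTCCCGC or TTTGGCGG. The letters CCGGAAG stood in 6 of 11 SNRP windows and 6 of 8 SF3A/SF3B windows, but in 2 of 19 HNRNP and 2 of 10 SRSF windows, where 10.9% of 27305 promoters and 20.7% of the 9959 of genes tested held them. CCAAT had the opposite distribution, with 14 of 19 HNRNP windows (73.7%) against 3 of 11 SNRP and 1 of 8 SF3A/SF3B windows, and 35.7% of all promoters and 36.6% of those of genes tested. GGGCGG stood in 15 of 19 HNRNP, 6 of 8 SF3A/SF3B, 2 of 3 U2AF, 4 of 10 SRSF and 3 of 11 SNRP windows. It stood in 45.6% of all promoters and 72.2% of those of genes tested, the latter near the HNRNP and SF3A/SF3B shares. CACGTG, the E-box that MYC can bind, stood in 5 of 19 HNRNP windows, 0 of 11 SNRP windows and 11.8% of members, against 7.42% of all promoters and 10.7% of those of genes tested. The E2F type stood in 9.8% of members against 2.97% of all promoters and 4.92% of those of genes tested. The NRF1 type stood in 19.6% of members against 6.41% and 12.9%, and TATAAA in 13.7% against 11.8% and 5.15%. A match describes the letters and is not a binding site, and no test was run.

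The 6 windows printed here belong to members that the results turn on, a called Sm gene and the one with overlapping groups, the SF3B genes with the lowest and the highest value, the hnRNP with the lowest adjusted p and the highest SR gene. They read 5′ to 3′ on the strand of the gene, with all matches to the searched letters on either strand in capitals. They lie at chr12:95858702-95859001 (SNRPF, plus), chr19:45691904-45692203 (SNRPD2, minus), chr1:149927754-149928053 (SF3B4, minus), chr2:197434979-197435278 (SF3B1, minus), chr19:38849937-38850236 (HNRNPL, minus) and chr14:69766892-69767191 (SRSF5, plus).
SNRPF: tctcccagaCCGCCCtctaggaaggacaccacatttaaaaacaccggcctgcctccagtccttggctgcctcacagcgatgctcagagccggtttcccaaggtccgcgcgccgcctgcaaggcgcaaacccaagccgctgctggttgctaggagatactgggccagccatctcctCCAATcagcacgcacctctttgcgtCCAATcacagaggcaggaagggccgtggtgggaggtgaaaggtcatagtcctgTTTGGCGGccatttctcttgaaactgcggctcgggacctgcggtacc
SNRPD2: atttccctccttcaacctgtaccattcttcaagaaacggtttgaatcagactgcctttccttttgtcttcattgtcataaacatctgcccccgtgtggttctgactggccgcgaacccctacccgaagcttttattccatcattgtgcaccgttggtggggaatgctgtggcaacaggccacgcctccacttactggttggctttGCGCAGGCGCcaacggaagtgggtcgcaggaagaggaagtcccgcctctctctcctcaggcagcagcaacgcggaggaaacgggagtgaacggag
SF3B4: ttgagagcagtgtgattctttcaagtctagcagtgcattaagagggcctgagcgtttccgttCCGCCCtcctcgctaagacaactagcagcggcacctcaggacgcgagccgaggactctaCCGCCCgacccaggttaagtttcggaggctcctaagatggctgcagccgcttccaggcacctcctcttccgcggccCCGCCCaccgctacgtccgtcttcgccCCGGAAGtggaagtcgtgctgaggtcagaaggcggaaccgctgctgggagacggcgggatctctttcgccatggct
SF3B1: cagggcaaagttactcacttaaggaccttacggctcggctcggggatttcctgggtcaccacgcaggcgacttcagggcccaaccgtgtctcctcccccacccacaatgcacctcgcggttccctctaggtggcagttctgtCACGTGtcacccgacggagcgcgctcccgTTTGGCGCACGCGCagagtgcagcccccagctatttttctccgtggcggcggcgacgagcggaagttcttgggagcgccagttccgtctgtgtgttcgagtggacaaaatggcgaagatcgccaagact
HNRNPL: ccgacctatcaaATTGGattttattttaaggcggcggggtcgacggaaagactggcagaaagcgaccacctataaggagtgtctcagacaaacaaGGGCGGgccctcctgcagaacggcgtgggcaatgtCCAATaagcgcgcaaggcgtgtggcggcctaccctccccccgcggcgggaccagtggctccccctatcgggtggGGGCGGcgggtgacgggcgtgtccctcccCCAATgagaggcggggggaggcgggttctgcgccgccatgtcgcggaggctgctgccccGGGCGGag
SRSF5: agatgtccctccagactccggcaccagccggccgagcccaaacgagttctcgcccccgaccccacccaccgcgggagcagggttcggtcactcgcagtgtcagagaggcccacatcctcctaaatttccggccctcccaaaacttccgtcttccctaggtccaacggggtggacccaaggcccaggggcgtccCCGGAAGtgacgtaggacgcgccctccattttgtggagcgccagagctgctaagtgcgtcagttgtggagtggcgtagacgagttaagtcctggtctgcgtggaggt
SNRPF carries 2 copies of CCAAT at positions -75 and -50 from the start, an E2F type match at position 3 and a GC box on the reverse strand. SNRPD2 holds none of these, and its only match is of the NRF1 type. SF3B4 has CCGGAAG at position -26 and 3 GC boxes on the reverse strand. SF3B1 has an E-box at position -108, and its E2F and NRF1 type matches share bases. HNRNPL has 3 copies of CCAAT, the farthest on the reverse strand, and 3 GC boxes. SRSF5 has CCGGAAG at position -57 as its only match.

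Several members share sequence with copies or overlap other genes, which limits how their reads could be assigned. Of the 56, 17 had no 50-base stretch in common with another gene, 22 had at least 10%, and 14 overlap an exon on the opposite strand. Of the called genes, SNRPE shared 12.5%, SNRPF 12.4% and SNRPD1 5.20%. The copy SNRPEP4 had 7.29 and 18.9 TPM in NC against 3.39 and 2.66 TPM in sh-ANP32B, below SNRPE in each sample.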

How the data were processed

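RNA sequencing of 2 NC and 2 sh-ANP32B samples of Kasumi-1 was analysed. The authors aligned reads to hg38 with HISAT2 (version 2.0.5 in the submitters' processing notes) and deposited TPM values per Ensembl gene. The program, annotation and strand setting behind the TPM values are not given in the sources used here. Each row of the deposited table has a mean of at least 0.50 TPM over the 4 samples. TPM keeps no depth, so no counting interval could be given. Symbols, positions and GC content came from GENCODE v44, in which 1581 rows had no match.

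The 56 members and all lists were chosen with earlier results of these data known. A gene was kept at 1 TPM or more in 2 or more samples and tested on log2(TPM + 1) by limma 3.58.1 with an abundance trend (R 4.3.3), two-sided, adjusted by Benjamini-Hochberg over 16817 genes. Fold changes on this scale understate the change of low genes. Members named with values were those past the test, the ends and the highest mean of each family and a fixed list. HNRNPM, HNRNPR, HNRNPL, HNRNPA2B1, SNRPC, SNRPD3, SF3B3, SF3B6, SF3A2 and PRMT5 were added after their values were seen. The result of 1 further marker list is not reported here. The fit was also run on simulated data, whose spread was drawn from the abundance trend and held no GC pattern. Such data cannot show how the fit behaves where real genes depart from that trend, so nothing is concluded from them. Samples of equal number did not vary together (Pearson r -0.0925 over genes), so the main fit has no replicate block. Alternatives were other scalings, filters, a pseudocount of 0.1, GC correction, no trend, the block and leaving out each sample. Python 3.11.15, pandas 2.3.3, numpy 2.4.6 and matplotlib 3.10.9 were used.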

Additional observations from a re-analysis of the deposited data

How the results depend on the processing

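The counts of members called lower (3) and higher (0) were the same after median-of-ratios scaling, without mitochondrial genes, with a pseudocount of 0.1, without a filter and with at least 1 TPM in all samples. In these fits 0.993% to 2.06% of all genes were lower and 1.37% to 3.55% higher. Limma without the abundance trend called 0 of all 16817 genes, and so 0 members and 0 genes of the other splicing lists. At an unadjusted p under 0.05 it had 11 lower and 1 higher members and 18 genes of the other lists. Of all genes, 3701 had such a p in that fit. It gave ANP32B an adjusted p of 0.0929 at a log2 fold change of -3.04. GC correction called 14 lower and 2 higher members (7.29% and 9.33% of all genes), and 20 lower and 5 higher genes of the other lists (1 and 0 as reported). The replicate block called 5 lower members, adding HNRNPA1 and HNRNPAB (2.92% of all genes were lower and 5.84% higher), and 3 lower and 1 higher genes of the other lists. With the block and GC correction together there were 9 lower and 2 higher members (6.31% and 7.54% of all genes), and 17 lower and 3 higher genes of the other lists. The other lists had 2 lower genes after median-of-ratios scaling, without mitochondrial genes and with at least 1 TPM in all samples. Family medians moved after median-of-ratios scaling to -0.105 (SRSF), -0.399 (HNRNP) and -0.424 (SNRP), while the median of all genes moved from 0.0827 to 0.00104. Without mitochondrial genes they were -0.355 (HNRNP) and -0.381 (SNRP), with the SNRP median at -0.398 after GC correction with or without the block. Leaving out each sample gave 0 to 23 lower and 0 to 5 higher members, and 0 to 38 lower and 0 to 12 higher genes of the other lists. The lowest counts came without NC replicate 1 or 2, where fewer of all genes tested were called than in the main fit. Without sh-ANP32B replicate 1 there were 18 lower and 5 higher members (9.68% and 14.6% of all genes), and without replicate 2 there were 23 lower and 3 higher (8.47% and 12.3% of all genes). Such fits have 1 residual degree of freedom and take the lone sample to vary like the other group. Medians then ranged from -0.335 to -0.237 (HNRNP), -0.472 to -0.277 (SNRP) and -0.208 to 0.115 (U2AF), the U2AF median being positive without sh-ANP32B replicate 1 and, at 0.0215, without NC replicate 1. The sign changed for SRSF3 (0.0254 after GC correction with or without the block, -0.0378 to 0.0151 when leaving out samples, positive without NC replicate 1 and at 0.0141 without sh-ANP32B replicate 1), U2AF2 (-0.232 to 0.115, positive without sh-ANP32B replicate 1 and at 0.0215 without NC replicate 1), SNRPD2 (-0.164 to 0.0507) and SRSF11 (-0.107 to 0.33), the last 2 changing sign without sh-ANP32B replicate 1. The cause of these shifts was not tested.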

Other observations

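For 3 rows that are no members but are copies of a member or overlap one, chosen after their values were seen, the groups did not overlap. HNRNPK-AS1, transcribed opposite to HNRNPK on chromosome 9 and overlapping an exon of it, had 4.38 and 6.03 TPM in NC against 16.7 and 10.6 TPM in sh-ANP32B (log2 fold change 1.22, SE 0.277, limma adjusted p 0.0644), where HNRNPK had -0.18. HNRNPA1P7, a copy of HNRNPA1, had 53.5 and 56.1 TPM in NC against 29.8 and 37.7 TPM in sh-ANP32B (log2 fold change -0.69, SE 0.166, limma adjusted p 0.0732). SNHG14, which overlaps SNRPN on its strand, had 16.2 and 17.6 TPM in NC against 32.01 and 28.4 TPM in sh-ANP32B. Reads of these rows and of the members cannot be told apart from the table.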
